A study of Mus musculus with 6 samples.

Results

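The 10 genes of oxylipin metabolism described across the MC38r and MC38 lines are the epoxide hydrolases Ephx1 and Ephx2, the cytochrome P450 genes Cyp4f13, Cyp4f16, Cyp4f18, Cyp2j6 and Cyp2j9, and the leukotriene genes Alox5, Alox5ap and Lta4h. They were chosen by name from the 30854 gene names of the probe table, in which all 10 were found (written there as EPHX1, EPHX2, CYP4F13, CYP4F16, CYP4F18, CYP2J6, CYP2J9, ALOX5, ALOX5AP and LTA4H), with 18 probes among 45281. MC38r is a mouse colorectal cancer line made resistant by continuous exposure to EPA (eicosapentaenoic acid, a polyunsaturated fatty acid of fish oil), with an IC50 that the series gives as 6-fold higher than that of MC38, the EPA-sensitive line. Total RNA of untreated MC38r and MC38 cells, grown alike in RPMI with foetal calf serum and harvested before the flasks were full, was measured on 3 arrays per line. With 1 line of each kind, resistance and any other way in which the lines differ cannot be told apart. The labels do not say whether the arrays of a line came from separate cultures, so p-values measure only the spread between these samples.

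EPA and arachidonic acid are released from membranes and oxygenated along several routes. In the leukotriene route the enzyme Alox5 acts together with the nuclear membrane protein Alox5ap, which presents the fatty acid, and Lta4h then hydrolyses the unstable product to leukotriene B4. In the epoxygenase route P450 enzymes of the Cyp2c and Cyp2j families add an epoxide, which the soluble hydrolase Ephx2 opens to a diol. The microsomal hydrolase Ephx1 is best known for the detoxification of foreign epoxides, and enzymes of the Cyp4f family hydroxylate fatty acids and leukotriene B4 near the end of the chain. The leukotriene route is mainly a property of leukocytes, and the Cyp2c and Cyp2j epoxygenases are abundant in liver, kidney and intestine.

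Promoter windows of 300 bases, from 250 before to 50 after the start site, were available for 8 of the 10 genes (RefSeq, build GRCm38.p6). The window of Ephx1, the member with the largest change, is shown with those of the Cyp4f genes, of which Cyp4f13 and Cyp4f16 gave signal in these cells and Cyp4f18 did not. All are written 5′ to 3′ along the gene. Capitals mark GC boxes (GGGCGG) and CCAAT boxes (CCAAT), searched on both strands, so that the reverse complements CCGCCC and ATTGG are capitals too.
Ephx1: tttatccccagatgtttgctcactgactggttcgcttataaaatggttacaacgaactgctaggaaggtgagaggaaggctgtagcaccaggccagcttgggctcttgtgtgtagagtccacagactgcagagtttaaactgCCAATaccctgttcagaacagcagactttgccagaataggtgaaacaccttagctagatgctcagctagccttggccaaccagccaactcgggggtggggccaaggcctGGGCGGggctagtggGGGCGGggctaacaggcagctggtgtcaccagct
Cyp4f13: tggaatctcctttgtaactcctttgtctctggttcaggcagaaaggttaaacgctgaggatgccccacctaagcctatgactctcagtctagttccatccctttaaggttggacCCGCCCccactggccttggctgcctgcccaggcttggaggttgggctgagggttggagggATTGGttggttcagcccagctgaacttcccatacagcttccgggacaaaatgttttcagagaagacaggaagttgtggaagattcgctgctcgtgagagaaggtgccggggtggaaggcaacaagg
Cyp4f16: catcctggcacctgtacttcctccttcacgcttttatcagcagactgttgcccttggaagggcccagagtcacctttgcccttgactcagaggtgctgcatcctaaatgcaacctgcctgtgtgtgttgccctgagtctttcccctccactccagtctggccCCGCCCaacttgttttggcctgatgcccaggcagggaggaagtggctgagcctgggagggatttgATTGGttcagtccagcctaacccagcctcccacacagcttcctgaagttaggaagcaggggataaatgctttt
Cyp4f18: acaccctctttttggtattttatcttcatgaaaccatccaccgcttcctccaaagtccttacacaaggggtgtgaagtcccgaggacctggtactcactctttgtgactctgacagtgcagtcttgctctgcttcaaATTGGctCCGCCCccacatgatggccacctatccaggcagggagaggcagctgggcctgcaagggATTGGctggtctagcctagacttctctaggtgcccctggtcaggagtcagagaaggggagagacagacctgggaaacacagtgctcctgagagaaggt
The windows lie at chr1:181017520-181017819 on the minus strand for Ephx1, chr17:32947312-32947611 on the minus strand for Cyp4f13, chr17:32536307-32536606 on the plus strand for Cyp4f16 and chr8:72009577-72009876 on the minus strand for Cyp4f18. Ephx1 held 2 GC boxes, both just after the start site (first bases at 2 and 17), and 1 CCAAT box at -108. Cyp4f13 and Cyp4f16 each held 1 GC box and 1 CCAAT box, and Cyp4f18 held 1 GC box and 2 CCAAT boxes. Of 32544 promoter windows 35.9% hold a GC box and 37.4% a CCAAT box, so that such matches are common. The antioxidant response element core TGACNNNGC, present in 12.4% of the windows, had no match in the windows of Ephx1, Cyp4f13 and Cyp4f16 and 1 match in that of Cyp4f18. Sequence outside the windows was not searched, and the part of any motif in the changes was not tested. The Cyp4f genes are related copies, and in the annotation Cyp4f16 stands between Cyp4f17 and Cyp4f37, and Cyp4f13 next to Cyp4f14. Probe sequences were not used here, so it was not tested whether a probe also reads a related copy.

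Between 28.97% and 30.52% of all probes were above background (detection p under 0.01) on the MC38r arrays and between 28.35% and 30.14% on the MC38 arrays, with a median of 44 beads per probe. All 6 arrays lay on 1 chip, with the lines on separate sections, so that chip position and line cannot be told apart. Housekeeping control signals averaged 10450 ± 205 on the MC38r arrays and 12183 ± 654 on the MC38 arrays (SD, n = 3 each), without overlap. The biotin staining and hybridisation controls were lower on the MC38r arrays without overlap too, with biotin at 5703 ± 405 in MC38r and 6684 ± 528 in MC38, Cy3 hybridisation at 3104 ± 93.5 in MC38r and 3379 ± 158 in MC38, and low stringency hybridisation at 2376 ± 69.1 in MC38r and 2585 ± 119 in MC38 (SD, n = 3 each). Negative controls overlapped, at 82.4 in MC38r and 83.3 in MC38. The part of these control differences in the results was not tested. MC38r replicate 1 and MC38 replicate 2 stood apart from the other arrays of their lines in the same way (r = 0.62 between their deviations from the line means over 13990 probes, which are not independent replicates), and results are given with and without both. Of 11 epithelial and colon markers 8 were above background on no array, among them Epcam, Cdh1, Krt18, Krt20 and Vil1, while Cdx2 exceeded background on each MC38r array and no MC38 array. Krt8 was above background on 1 array of each line by probe 240438, and Cdx1 on 1 MC38 array by probe 3290500. The colorectal origin of the lines therefore rests on the labels.

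Of the 18 probes 12 were above background on none of the 6 arrays, and these include every probe of Ephx2, Cyp4f18, Cyp2j6, Cyp2j9, Alox5 and Lta4h. The other 6 probes, of Ephx1, Cyp4f13, Cyp4f16 (2 probes) and Alox5ap (2 probes), were above background on at least 3 arrays and entered the test across all 13990 such probes, 5 of them on all 6 arrays. Ephx1 was 10.5-fold higher in MC38r than in MC38, Cyp4f13 was moderately higher, Alox5ap was lower by the probe above background on all 6 arrays, and Cyp4f16 did not pass the test. In limma's test with Benjamini-Hochberg adjustment over all probes (threshold 0.05), 2 member probes rose and 2 fell, where 55.1% of all tested probes were called, 28.1% higher and 27% lower in MC38r. Of the 2 that fell, 1 Alox5ap probe had met the filter through its MC38 arrays alone, and among the 5 member probes above background on all 6 arrays 3 were called when such probes alone were tested, where 52.1% of all those probes were. A call was common on these arrays, and the number of members called is read against that share only. Without MC38r replicate 1 and MC38 replicate 2 the number of member probes called was again 4 of 6, where 57.7% of all tested probes were called. The arrays of the lines did not overlap for 4 of the 6 tested member probes and for 61.5% of all tested probes. The median absolute log2 change was 0.72 over the 6 member probes and 0.5 over all tested probes.

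**Figure D1:**
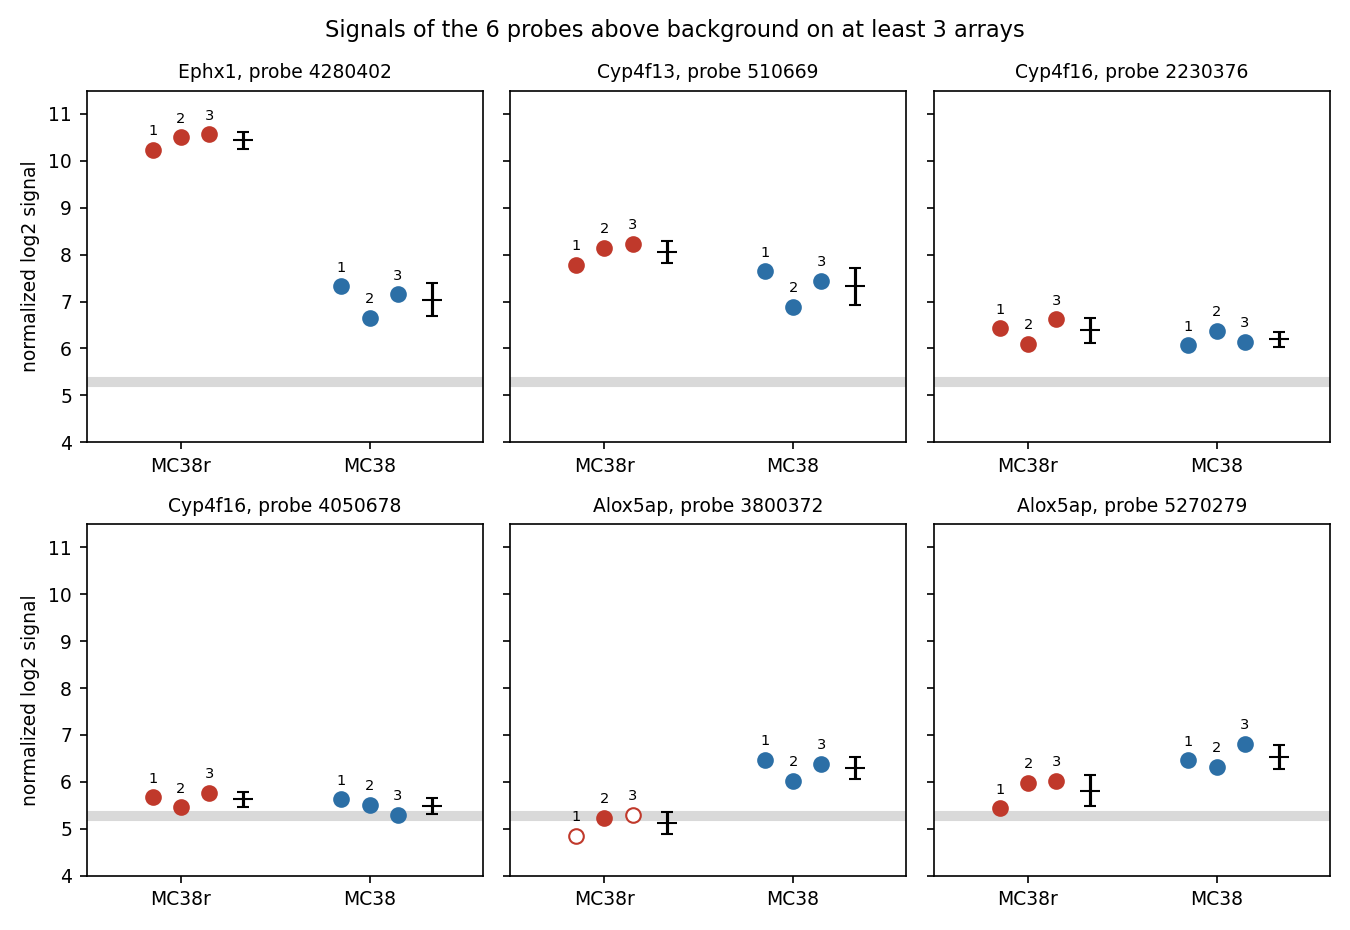
Normalized log2 signal (y axis) of each tested member probe on the 3 MC38r arrays (red, left) and the 3 MC38 arrays (blue, right), numbered by replicate, with open circles for arrays not above background, black bars for mean ± SD (n = 3), and a grey band for the lowest signals called above background (5.19 to 5.36). Ephx1 lies above 10 on every MC38r array and at 7.32 or below on every MC38 array, and each panel is read on its own since levels of different probes are not comparable.

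Ephx1 encodes microsomal epoxide hydrolase, which turns reactive epoxides into diols in the endoplasmic reticulum. Its probe (4280402) had deposited signals of 1193, 1436.4 and 1497.8 on MC38r replicates 1 to 3, against 144.6, 84.7 and 126.7 on MC38 replicates 1 to 3. The lowest MC38r array was far above the highest MC38 array, and the probe was above background on all 6 arrays. The standard error over the 34 to 52 beads of an array was 59.8 to 88.8 on the MC38r arrays and 7.48 to 11.3 on the MC38 arrays, which is small beside the gap between the lines. On the normalized log2 scale the levels were 10.24, 10.5 and 10.56 in MC38r, against 7.32, 6.65 and 7.15 in MC38. The means were 10.44 ± 0.17 in MC38r and 7.04 ± 0.35 in MC38 (SD, n = 3 each), a log2 difference of 3.39 with a 95% confidence interval of 2.96 to 3.82, or 10.5-fold (limma, adjusted p = 6.4e-07). By size of change the probe was number 112 among the 7276 probes with a positive change, and 1.88% of all 13990 tested probes had a larger absolute change. Without MC38r replicate 1 and MC38 replicate 2 the log2 difference was 3.29 (adjusted p = 1.8e-06), and over 27 other settings it lay between 3.09 and 3.53 with an adjusted p of 6.4e-09 to 3.9e-05. In the authors' deposited table, whose test is not stated, the ratio of Ephx1 was 9.25 with an unadjusted p of 0.0038 and an adjusted p of 0.0646. That ratio ranks Ephx1 number 142 by absolute log2 ratio among the 6244 genes the table lists.

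The genes whose profile over the 6 arrays lay nearest to that of Ephx1 were Nnmt, Nphp4, Cytip, Cdkn1a and Dbndd2. Likeness was the Euclidean distance between log2 signals centred on each probe's mean, which ran from 0.28 for Nnmt to 0.39 for Dbndd2 among 12214 probes of other named genes. Nnmt, which encodes a nicotinamide methyltransferase, averaged 9.2 in MC38r and 5.83 in MC38. Cdkn1a, which encodes a cell cycle inhibitor, averaged 12.22 in MC38r and 8.76 in MC38. With 3 arrays per line such a list mostly reflects the size of the difference between the lines, and no test was made of it.

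Ephx2 encodes soluble epoxide hydrolase, the main hydrolase of fatty acid epoxides. Its 1 probe (3520491) had deposited signals of 11.1, 19.4 and 11.8 in MC38r, against 10.1, 14.6 and 2.3 in MC38. None of these was above background, with a lowest detection p of 0.016, and the ranges of the lines overlapped. A difference between the lines in Ephx2 was not detectable on these arrays.

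Among the Cyp4f genes Cyp4f13 was higher in MC38r, Cyp4f16 did not pass the test and Cyp4f18 was at background. The 1 probe of Cyp4f13 (510669) stood at log2 levels of 7.78, 8.15 and 8.23 in MC38r, against 7.65, 6.88 and 7.44 in MC38. The lines did not overlap, but the lowest MC38r array and the highest MC38 array lay close together. The means were 8.05 ± 0.24 in MC38r and 7.32 ± 0.39 in MC38 (SD, n = 3 each), a log2 difference of 0.73 with a confidence interval of 0.25 to 1.2, or 1.66-fold (limma, adjusted p = 0.016). A change at least this large was found for 35.1% of all tested probes. The call was lost without MC38r replicate 2 (0.68, adjusted p = 0.057) or MC38r replicate 3 (0.64, adjusted p = 0.066), and without the detection filter (adjusted p = 0.069), and over all settings the adjusted p ran from 0.0038 to 0.069. Without MC38r replicate 1 and MC38 replicate 2 the log2 difference was 0.64 (adjusted p = 0.0038). In the authors' deposited table the ratio of Cyp4f13 was 1.57 (unadjusted p = 0.0372, adjusted p = 0.207).

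Cyp4f16 had 3 probes. Probe 2230376 stood at log2 levels of 6.43, 6.1 and 6.62 in MC38r, against 6.07, 6.37 and 6.14 in MC38. The lines overlapped, and the log2 difference was 0.19 with a confidence interval of -0.18 to 0.57 (limma, adjusted p = 0.36). Probe 4050678 stood at 5.67, 5.46 and 5.77 in MC38r, against 5.63, 5.51 and 5.3 in MC38. Here too the lines overlapped, with a log2 difference of 0.15 and an interval of -0.18 to 0.48 (limma, adjusted p = 0.41). Both intervals end below the 0.73 fitted for Cyp4f13, but they include 0 and a rise, and do not show that the lines are equal. Probe 4050678 also lay near the lowest signals called above background (5.19 to 5.36), where the offset weighs on a change. With an offset of 50 its log2 difference was 0.09, beside 0.62 for Cyp4f13. The remaining probe (540075) was above background on no array. Without MC38r replicate 1 and MC38 replicate 2 the log2 differences were 0.26 for probe 2230376 (adjusted p = 0.25) and 0.15 for probe 4050678 (adjusted p = 0.45). Single arrays moved both values, that of probe 2230376 between 0.07 without MC38r replicate 3 and 0.33 without MC38r replicate 2, and that of probe 4050678 between 0.06 without MC38 replicate 3 and 0.24 without MC38r replicate 2. The change of Cyp4f13 exceeded that of Cyp4f16 by 0.54 ± 0.38 for probe 2230376 and by 0.58 ± 0.29 for probe 4050678 (SE, log2 scale). A two-sided exact permutation test over the 6 arrays gave p = 0.2 for each, but its smallest possible p is 0.1, so that it could not have called a difference of any size.

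Cyp4f18, which oxidises leukotriene B4 in mouse neutrophils, had 2 probes with deposited signals between -8.3 and 10.2 in MC38r and between -3.4 and 7.7 in MC38. The epoxygenase genes Cyp2j6 and Cyp2j9, neighbours in a cluster of related genes, had 2 probes each. Cyp2j6 signals ran from -9.9 to 1.5 in MC38r and from -15 to 4.4 in MC38, and those of Cyp2j9 from -6.6 to 9.8 in MC38r and from -10.3 to 2.5 in MC38. After background subtraction, signals around 0 are at background, and no array exceeded it for any of the 6 probes.

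Alox5ap encodes the activating protein of the leukotriene pathway, and was the 1 leukotriene member with signal. Probe 5270279 stood at log2 levels of 5.44, 5.97 and 6.02 in MC38r, against 6.46, 6.32 and 6.81 in MC38. It was above background on all 6 arrays, and every MC38r array was below every MC38 array. The means were 5.81 ± 0.33 in MC38r and 6.53 ± 0.25 in MC38 (SD, n = 3 each), a log2 difference of -0.72 with a confidence interval of -1.16 to -0.27, or 1.64-fold lower in MC38r (limma, adjusted p = 0.012). Without the detection filter, where more probes share the adjustment, the adjusted p was 0.051. With a larger offset of 50 the log2 difference of this probe was -0.48 (limma, adjusted p = 0.015), so that the size of the fold depends on the offset. Probe 3800372 stood at 4.85, 5.23 and 5.3 in MC38r, where only replicate 2 was above background, against 6.48, 6.02 and 6.39 in MC38. Its log2 difference was -1.17 with an interval of -1.57 to -0.78, as fitted (limma, adjusted p = 0.0004). This probe met the filter through its 3 MC38 arrays alone, which favours a lower value in MC38r, so that it adds no independent support, and a larger offset of 50 reduced its difference to -0.71 (adjusted p = 0.00095). The probes differed in the size of the fall by -0.45 ± 0.14 (SE, log2 scale), which an exact permutation test over the 6 arrays cannot call (two-sided p = 0.1, the smallest possible). Adjusted over the 4 probe pairs compared, including those of Cyp4f16, no p was under 0.27. Without MC38r replicate 1 and MC38 replicate 2 the log2 differences were -0.64 for probe 5270279 (adjusted p = 0.0072) and -1.17 for probe 3800372 (adjusted p = 0.00014). The authors' deposited table lists a ratio of 0.608 for Alox5ap (unadjusted p = 0.013, adjusted p = 0.118).

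Alox5 and Lta4h, the enzymes on either side of leukotriene A4, were at background. The 3 probes of Alox5 had deposited signals between -7.9 and 3.1 in MC38r and between -13 and 1 in MC38. The 1 probe of Lta4h had signals of 2.2, 5.5 and -2.7 in MC38r, against 0.7, -3.7 and 2.1 in MC38. Neither gene exceeded background on any array, although for Alox5 probe 5820286 the MC38r values (0.8 to 2.5) lay above the MC38 values (-13 to 0.6). In the fit over all 45281 probes without the detection filter, that probe had a log2 difference of 0.14 with an interval of -0.04 to 0.32 (limma, adjusted p = 0.37). With a single probe for Lta4h, a transcript that this probe does not read would not be seen.

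**Figure D2:**
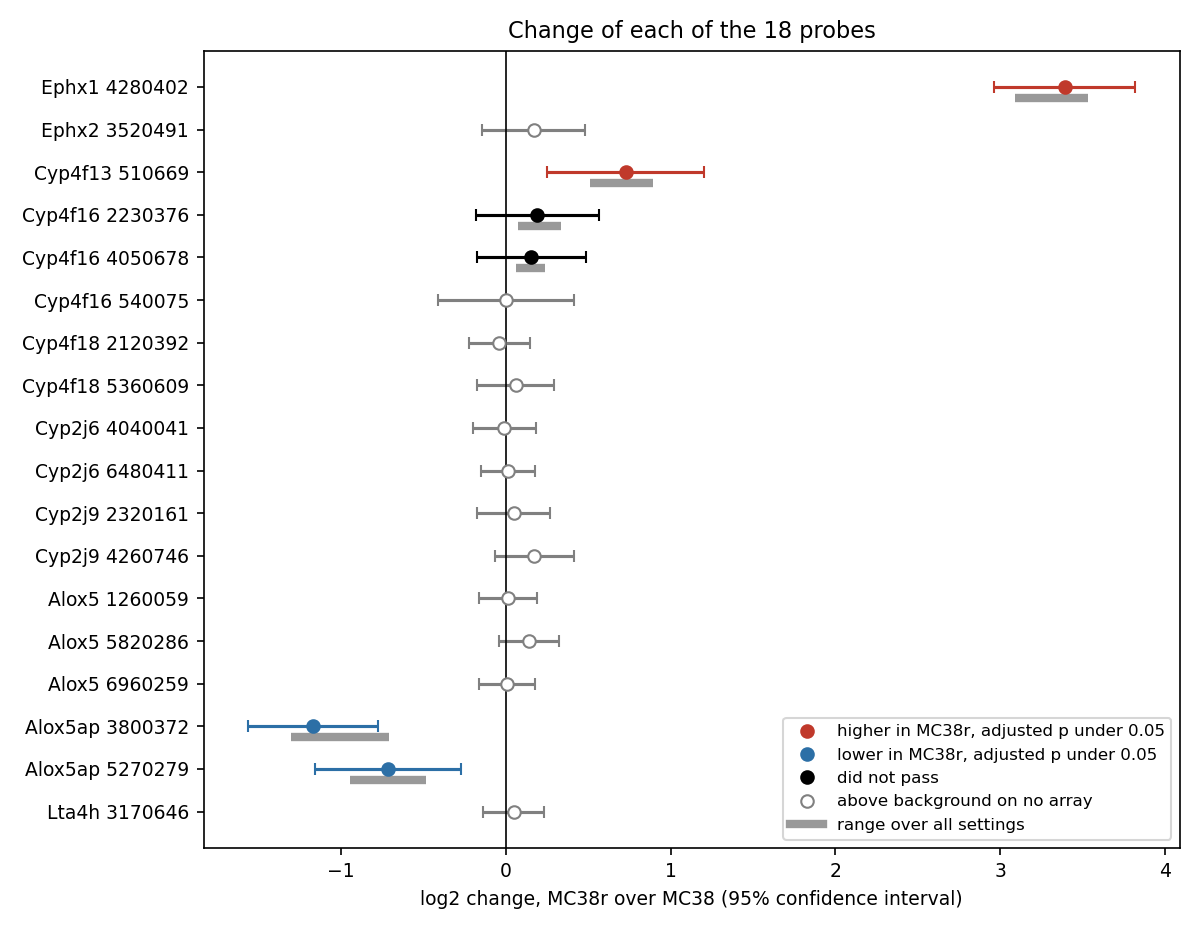
Log2 change, MC38r over MC38 (x axis), of each of the 18 probes with its confidence interval from limma. Filled points are the 6 tested probes (red higher, blue lower, black not passing), grey bars below them span the values over the settings run (up to 28 with the reported one), and open points are the 12 probes at background, from the fit without the filter. Ephx1 stands alone at 3.39, and the intervals of all 12 probes at background include 0.

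Since Alox5ap is known mainly from leukocytes, markers of other cell types were read beside it. Of 12 myeloid markers with a probe 8 stayed at background throughout, among them Ptprc, Itgam, Csf1r and Adgre1. The summed myeloid signal was 314.5 to 325.6 on the MC38r arrays and 209.1 to 250.2 on the MC38 arrays, and most of it came from Cd14 (mean signal 193 in MC38r and 140 in MC38). Of the detected myeloid markers, Cd14 was higher by 0.42 on the log2 scale (limma, adjusted p = 0.015) and Cd68, above background on 1 MC38r array and 3 MC38 arrays, differed by -0.64 (limma, adjusted p = 0.0042). Cd68 met the filter through its MC38 arrays alone, which favours a lower value in MC38r, so that its fitted change adds no independent support. Mpo was above background on 2 MC38r arrays and no MC38 array by 2 of its 4 probes (mean signals of 24.3 and 21.9 in MC38r), and S100a8 on 1 array of each line. None of 6 mast cell markers and none of 5 lymphocyte markers was above background on any array. Among 6 fibroblast markers, whose summed signal was 522 to 618.5 in MC38r and 425.1 to 504.6 in MC38, only Thy1 was at background throughout. Pdgfra (1.09 on the log2 scale, limma adjusted p = 0.0002) and Dcn (0.82 by probe 5390328, limma adjusted p = 0.0017) were higher in MC38r. Col1a1, above background on all arrays by probe 10279, did not pass (-0.19, limma adjusted p = 0.48). Col1a2 (-0.97, limma adjusted p = 0.0076) was above background on 1 MC38r array and 3 MC38 arrays, and Col3a1 on no MC38r array and all MC38 arrays by probe 2230544. These Col1a2 and Col3a1 probes also met the filter through their MC38 arrays alone, which favours a lower value in MC38r. The hepatocyte marker Apoa1 was above background on all MC38r arrays and no MC38 array, while Alb and Ttr were at background. The part of these markers in the Alox5ap difference was not tested. In RNA from whole cultures, fewer cells with a transcript and less of it per cell cannot be told apart.

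**Figure D3:**
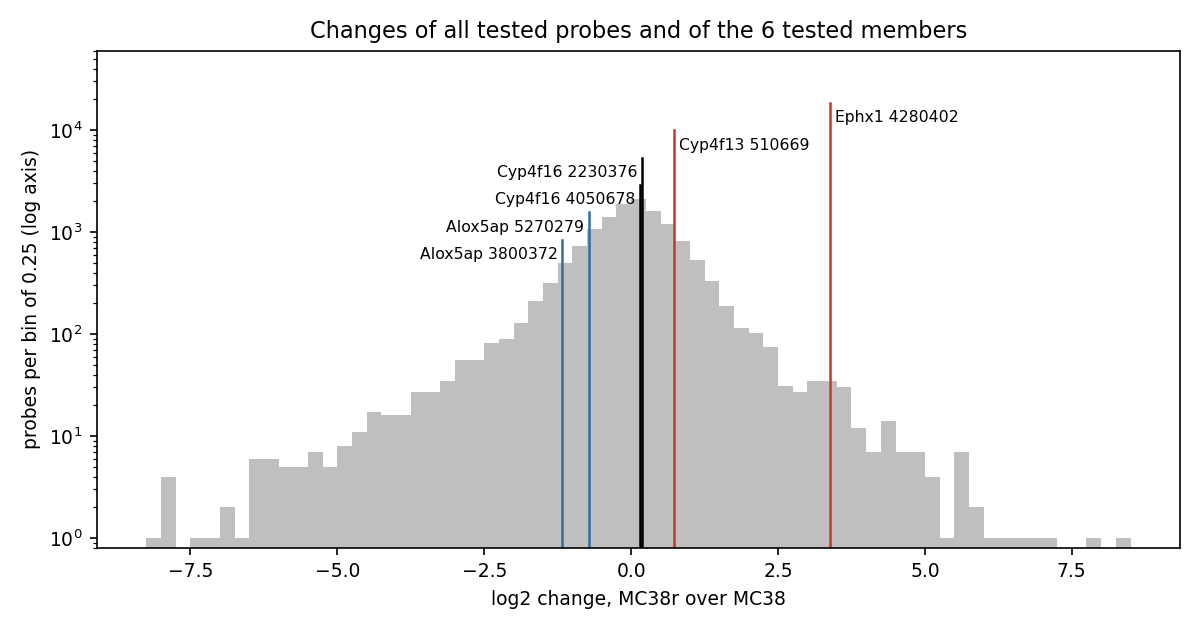
Number of probes (y axis, log scale) per bin of 0.25 in log2 change, MC38r over MC38 (x axis), for all 13990 tested probes (grey), with lines at the 6 tested member probes (red higher, blue lower, black not passing), whose height carries no value. The Ephx1 probe lies in the right tail, where 1.88% of the probes have a larger absolute change, and the other 5 lie in the body of the distribution.

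The called members shared their lowest arrays within each line. Ephx1, Cyp4f13 and both Alox5ap probes had their lowest MC38r value on replicate 1 and their lowest MC38 value on replicate 2, the arrays that stood apart over all probes. Of all tested probes 39.8% were lowest on MC38r replicate 1 and 40.2% on MC38 replicate 2. The share of all tested probes lowest on both arrays was not counted. The deviations of these arrays from their line means correlated at 0.62 over all tested probes. The shared order is therefore not read as a trait of the members. The Cyp4f16 probes followed another order, with their lowest MC38r value on replicate 2. The lowest MC38 array was below the line mean by -0.39 for Ephx1, -0.44 for Cyp4f13, and -0.27 and -0.21 for Alox5ap on the log2 scale. A cause of this shared order was not tested.

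The wider pathway was read from a list of 71 names of enzymes, receptors and electron donors around these genes, which matched 59 genes on the array. Of their 92 probes 76 were above background on no array, and 15 probes of 9 genes were tested. Of these 15 probes 5 rose and 9 fell in MC38r and 1 did not pass, where 55.1% of all tested probes were called, 28.1% higher and 27% lower. Of the 14, 4 had met the filter through the line in which they were higher alone. Among the 11 pathway probes above background on all 6 arrays 10 were called, where 52.1% of all such probes were. Both the 15 and the 11 probes include repeat probes of Por, Cyb5r3, Cyb5a and Mgst3, so that they are not separate genes. The 15 probes had a median log2 change of -0.61, or -0.56 with probes at background in 1 line held at their bound, beside 0.03 over all tested probes. Without MC38r replicate 1 and MC38 replicate 2, 10 of the 11 pathway probes that met the filter were called, where 57.7% of all probes were. None of the 5 probes of the leukotriene receptors (Ltb4r1, Ltb4r2, Cysltr1, Cysltr2) was above background on any array. The same held for the 9 probes of 6 other lipoxygenases, the 3 probes of Ephx3 and Ephx4, the 4 of other Cyp4f genes, the 4 of Cyp4a genes and the 6 of other Cyp2j genes. Among 23 probes of 13 Cyp2c epoxygenase genes 1, of Cyp2c65, was above background on 2 MC38r arrays and no MC38 array.

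The electron donors of the microsomal P450 enzymes gave signal and changed. Por, which encodes the reductase that passes electrons to all microsomal P450s, averaged 10.23 ± 0.38 in MC38r and 8.57 ± 0.47 in MC38 by probe 2070563 (SD, n = 3 each), a 3.15-fold rise (limma, adjusted p = 0.00052). Probe 730110 rose 2.92-fold, and another (70685) was above background in MC38r alone, at least 1.43-fold higher against the lowest signal called above background. The 2 Por probes measured in both lines were higher in MC38r without overlap. Cyb5r3, the reductase of cytochrome b5, went the other way in 3 probes. Its probe 5130041 averaged 6.19 ± 0.2 in MC38r and 7.31 ± 0.02 in MC38, a 2.16-fold fall (limma, adjusted p = 0.00014), and the others were 2.12-fold and 1.94-fold lower. Cyb5a, cytochrome b5 itself, fell by 1.37-fold and 1.52-fold in its 2 probes, and was named after its values were seen because of its partner. Pgrmc1, which encodes a heme-binding membrane protein, did not pass (-0.38 on the log2 scale, limma adjusted p = 0.081).

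The genes of leukotriene C4 synthase and of the microsomal glutathione transferases differed among themselves. Ltc4s, the leukotriene C4 synthase, and Mgst1 were at background. Mgst2, a microsomal transferase that can also form leukotriene C4, averaged 9.03 ± 0.16 in MC38r and 7.7 ± 0.22 in MC38, a 2.51-fold rise (limma, adjusted p = 9.0e-05). Mgst3, its relative, averaged 7.84 ± 0.2 in MC38r and 10.04 ± 0.17 in MC38 by probe 4210619, a 4.58-fold fall (limma, adjusted p = 3.0e-06), and its other probe was 3.75-fold lower. Cyp1b1, which oxidises foreign compounds and fatty acids, was above background on all MC38 arrays and no MC38r array. It was at least 1.62-fold lower in MC38r, and entered the test through its MC38 arrays alone. The limma adjusted p of 7.8e-05 belongs to its fitted change, and the bound itself was not tested. Chosen after their values were seen, the leukotriene C4 exporter Abcc1 was at least 1.48-fold lower by 1 of 3 probes, and the peptidase Dpep2 at least 1.19-fold higher by 1 of 3 probes. The other probes of both genes were above background on no array.

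**Figure D4:**
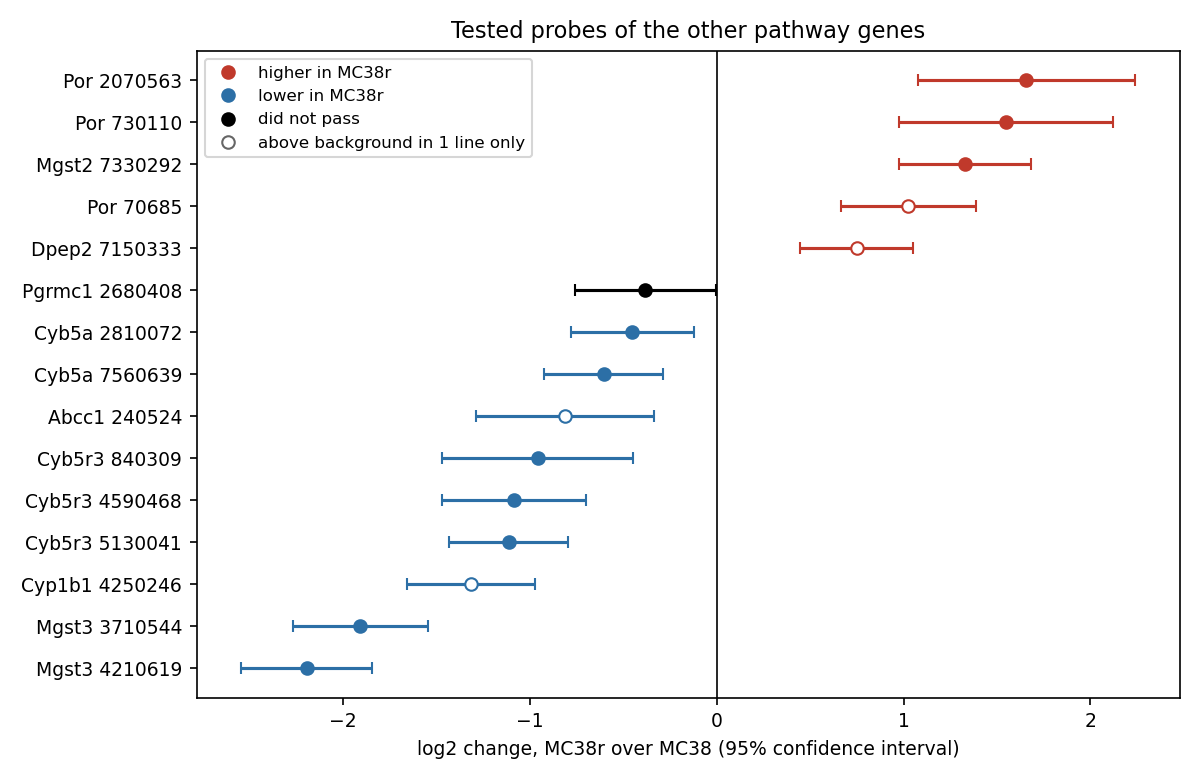
Log2 change, MC38r over MC38 (x axis), with confidence interval from limma, of the 15 tested probes of the pathway list, red for higher, blue for lower and black for not passing. Open points mark the 4 probes above background in 1 line only, whose fitted change is no measured fold. The 2 filled Por points lie right of 0 and both Mgst3 probes lie farthest left.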

How the data were processed

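The probe table of the Illumina MouseWG-6 version 2.0 arrays was made by the authors in GenomeStudio 1.9.0 with quantile normalization, per the file headers. Its deposited signals are intensity on a linear scale, and 35.0% to 35.1% of them lie under 0, which shows a background subtraction. Detection was deposited as a score from 0 to 1, read as 1 minus the detection p-value. Control probes were deposited as intensity per array. The authors deposited a table of their own comparison with a linear ratio or fold, its log2 value and p-values, which stops at an unadjusted p of 0.05. How the deposited series values were normalized is not given in the sources used here.

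Signals went through limma 3.58.1 in R 4.3.3: normexp background correction (nec, with detection p-values, offset 16), log2 and quantile normalization. Of all probes, 13990 met a detection p under 0.01 on 3 or more arrays and were tested. The lines were compared with lmFit and eBayes (group only), adjusted over all kept probes by the Benjamini-Hochberg method. A probe above background in 1 line only has its fold given as "at least", against the lowest signal above background on each array of the other line. The fit was tested on simulated data, and no result here rests on that test. Replicates 1 to 3 are those of the labels. The number of arrays limits the precision, with a median standard error of 0.16 (log2), and intervals are 95% confidence intervals.

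The members and lists were chosen with earlier results of these data known. All members were named. From the pathway list, genes called with at least a 2-fold change and up to 5 not passing were named. The differences between probes, by exact permutation over arrays, were added after the values were seen. Names were matched to GRCm38.p6 symbols (16223 by symbol, 5684 by older symbol, 8947 not matched). Alternatives covered background correction, offset, normalization, probe filter, variance model, array weights, probe summary, deposited series values, replicate block and left-out arrays.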

Additional observations from a re-analysis of the deposited data

How the results depend on the processing

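The count of all called probes was 5696 to 8969 over 27 alternatives (7713 as reported), within 1.5 times in each. No member changed direction in any alternative run. Ephx1 passed, and both Cyp4f16 probes did not pass, in every alternative that gave them a value. Alox5ap probe 3800372 passed in the 23 that gave it a value, and the filter for all 6 arrays left it out. As reported it had met the filter through its MC38 arrays alone, so that its passing adds no independent support. Without the detection filter all 45281 probes share the adjustment, and 2 of 18 member probes were called, where 16.7% of all probes were. As reported, 4 of 6 member probes were called, where 55.1% of all tested probes were. Cyp4f13 (0.73 on the log2 scale, limma adjusted p = 0.069) and Alox5ap probe 5270279 (-0.72, limma adjusted p = 0.051) missed the threshold without the filter. With 1 array left out, Cyp4f13 ranged from 0.51 to 0.89, and it missed the threshold without MC38r replicate 2 (0.68) or 3 (0.64), also when the same probes were kept. Alox5ap probe 5270279 came to an adjusted p of 0.04997 without MC38 replicate 3. With 1 value per gene, by the brightest probe, the mean of its probes or the deposited series values, 8 of 9 pathway genes passed. Of all genes 56.1%, 58.1% and 57.4% passed in these settings, in that order. As reported, 14 of 15 pathway probes were called. Gene values were set against the brightest probe of each gene alone. Omission of both arrays that stood apart was chosen after seeing the data.

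With the replicate number as a block (replicate block), 6887 probes were called, 49.2% of those tested. The same number of members, 4 of 6, passed, with Ephx1 at 3.39 (limma, adjusted p = 2.2e-05) and Cyp4f13 at 0.73 (limma, adjusted p = 0.033). The numbers do not pair the samples: same-numbered arrays correlated at -0.46, -0.44 and 0.3 in their deviations from the line means, while MC38r replicate 1 and MC38 replicate 2 correlated at 0.62. Signal over background limits the 12 probes that no array raised above it.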
